A study of Homo sapiens with 9 samples.

Results

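To examine how androgen receptor signalling responded to knockdown of the lncRNA *IGF1R-AS1*, 40 androgen-induced genes were followed in RNA-seq counts of VCaP prostate cancer cells. The 40 genes, referred to as members, were listed by name as known targets of the androgen receptor, with earlier results of these data known, out of 19918 genes listed in each library. VCaP is an established cell line derived from a prostate cancer metastasis, it carries a *TMPRSS2-ERG* fusion, and all libraries come from this 1 line. Cells were reverse transfected with 100 pmol of si025, of si033 or of a control siRNA and collected after 72 h. Both si025 and si033 were aimed at exon 1 of *IGF1R-AS1*, which is transcribed opposite to *IGF1R*. No androgen or receptor antagonist was named for any group, so the comparisons are between siRNAs alone. Each group held 3 libraries of between 11649811 and 28492259 counts. A figure legend of the study calls the replicates biological, while the labels do not say that they were separate cultures, so *p* values measure the spread between these libraries, which may be partly technical. The targeted transcript was not analysed here, and the degree of knockdown with each siRNA is not given here.

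The siRNA sequences are shown because the results turn on the difference between the siRNAs. The oligo list of the study does not tie its names to si025 and si033.
IGF1R-AS1-siRNA-1#: agaaagcacugaagaccuauu
IGF1R-AS1-siRNA-2#: ccguauugcucaguggaaauu

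The androgen receptor is a nuclear receptor that moves to the nucleus when it binds androgen and pairs on DNA at androgen response elements, which are short inverted repeats. In prostate luminal cells it acts with pioneer and lineage factors such as FOXA1 and HOXB13 and induces secreted proteases, membrane transporters and enzymes of lipid, polyamine and sugar metabolism. Most of its binding sites lie in distal enhancers, and it also represses a set of genes.

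Of the 40 members, 39 were expressed highly enough to be tested. Of these, 10 rose with si025 and fell with si033 and 1 did the reverse, while 6 rose and 9 fell with both siRNAs. Against control, 21 members rose with si025 and 11 fell, whereas 10 rose with si033 and 22 fell. A member is referred to as called where the edgeR quasi-likelihood test gave an adjusted *p* value under 0.05 over all 12810 genes tested. For si025 the risen members made up 53.8% and the fallen 28.2% of those tested, beside 32.9% and 28.8% of all genes. For si033 these shares were 25.6% and 56.4%, beside 26.9% and 27.8% of all genes. The median log2 fold change of the members was 0.15 with si025 and -0.17 with si033, and that of all genes was 0.02 and 0.00. The comparisons share the control libraries. The direct comparison of the siRNAs called 23 members higher with si025 and 12 higher with si033, 59% and 30.8% of those tested beside 31.2% and 29.7% of all genes. In bulk RNA, fewer cells of a type and less RNA per cell cannot be told apart.

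Together the members held 1.08% to 1.09% of all counts in the control libraries, between 1.32% and 1.33% with si025, and between 0.965% and 1.01% with si033. *KLK2* alone took between 0.186% and 0.194% in control, between 0.340% and 0.373% with si025 and between 0.153% and 0.171% with si033. Without *KLK2*, the shares were 0.891% to 0.900% in control, 0.955% to 0.977% with si025 and 0.797% to 0.837% with si033. The order of the groups was thus the same with and without the most abundant member.

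**Figure D1:**
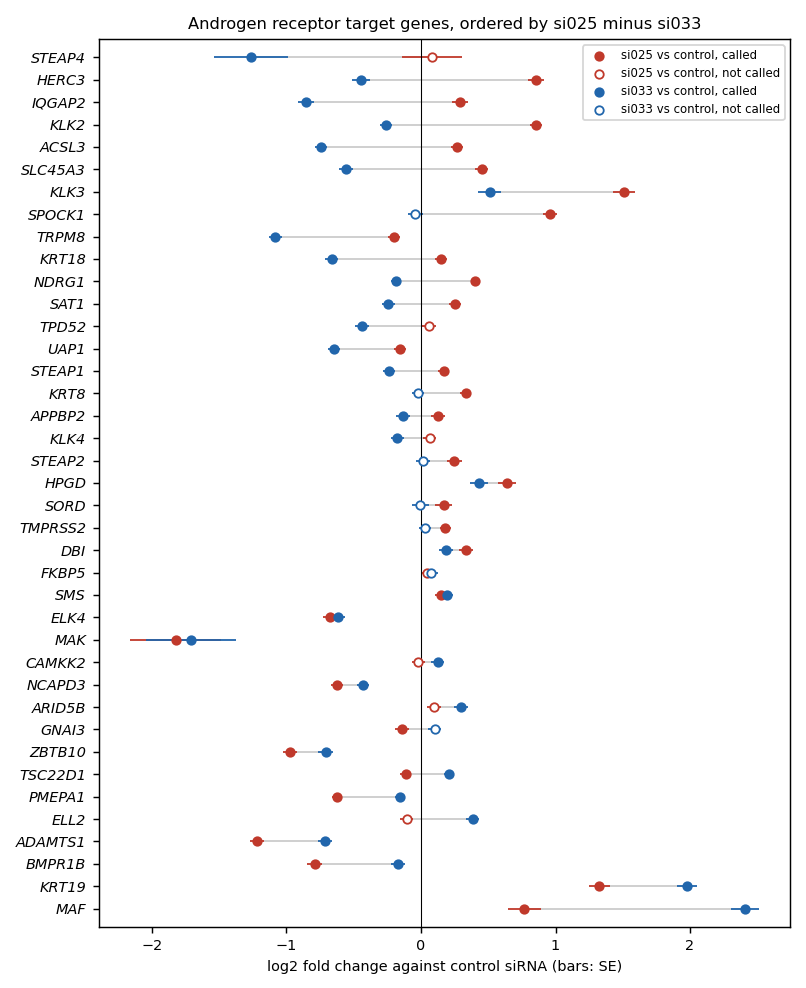
Log2 fold change against control siRNA of the 39 tested members with si025 (red) and si033 (blue), with SE as bars, ordered from top by the difference si025 minus si033. Filled points passed the test, 10 members lie to the right of 0 with si025 and to the left of 0 with si033 with both points filled, and *TSC22D1* is the 1 member with the opposite arrangement.

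A total of 10 of the 39 members (25.6%) rose with si025 and fell with si033, beside 5.39% of all genes. They were *HERC3*, *IQGAP2*, *KLK2*, *ACSL3*, *SLC45A3*, *KRT18*, *NDRG1*, *SAT1*, *STEAP1* and *APPBP2*. The reverse arrangement was found for 1 member, *TSC22D1*, beside 3.01% of all genes. All 11 members also differed in the direct comparison, which follows from opposite calls against the same control and adds no support. Among all genes, the 690 and 385 with these arrangements all differed as well. A further 6 members rose with both siRNAs, beside 15.1% of all genes, and 9 fell with both, beside 14.6% of all genes.

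*KLK2*, which encodes kallikrein 2, a secreted serine protease of prostate luminal cells, lies at chr19:50873433-50880567 in hg38. It gave 1894, 1981 and 1939 CPM (counts scaled to a common library size) in the control libraries, 3445, 3690 and 3370 with si025, and 1657, 1525 and 1680 with si033. The 3 groups did not overlap, and si025 stood above and si033 below control. The log2 fold change was 0.85 ± 0.04 (SE, adjusted *p* = 8.42e-14) with si025 and -0.26 ± 0.04 (adjusted *p* = 2.09e-05) with si033, and the siRNAs differed by 1.11 ± 0.04 (adjusted *p* = 4.47e-16).

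*KLK3* encodes prostate-specific antigen, the secreted protease measured in blood to follow prostate cancer, and its gene ends 12668 bases before *KLK2* on the same strand. It gave 11.9, 14.1 and 14.1 CPM in control, 42.1, 37.6 and 36.9 with si025, and 21.3, 17.6 and 19.2 with si033. Both siRNAs stood above control, si025 by more. The log2 fold change was 1.51 ± 0.08 (SE, adjusted *p* = 2.10e-13) with si025 and 0.51 ± 0.09 (adjusted *p* = 3.76e-05) with si033, with a difference of 1.0 ± 0.08 between them. Per kilobase of exon, *KLK3* was at 0.00973 to 0.0113 of the level of *KLK2* in control libraries and at 0.0158 to 0.0199 in the siRNA libraries. *KLK2* and *KLK3* are close paralogs, and reads that fit both were not counted, so the levels are less certain. *KLK4*, another kallikrein of this cluster, was not called with si025 (log2 fold change 0.06) and fell by 0.18 with si033 on the log2 scale.

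The promoters of *KLK2* and *KLK3* are shown because the receptor is known to bind close to their start sites. The letters AGAACA, any 3 bases and TGTTCT were searched in windows of RefSeq promoters (GRCh38.p14) from 250 bases before to 50 after the start, with up to 3 mismatches in the 12 defined bases. The element equals its own reverse complement, so both strands were covered. Capitals mark the best match over the windows of each gene, 1 each for *KLK2* and *KLK3* and 4 for *PMEPA1*. *PMEPA1* is shown as the other member with at most 2 mismatches. Its stretch lies before a start inside the gene, whose counted exons reach to chr20:57711536.
KLK2 (chr19:50873248-50873292, plus strand): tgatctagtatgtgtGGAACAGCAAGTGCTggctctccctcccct
KLK3 (chr19:50854730-50854774, plus strand): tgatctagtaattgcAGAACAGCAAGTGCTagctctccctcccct
PMEPA1 (chr20:57710786-57710827, minus strand): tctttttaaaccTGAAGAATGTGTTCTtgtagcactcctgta

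With positions counted from 1 at the 5′ end of the element and the consensus base first, the *KLK3* match differs at T10A and T13G, the *KLK2* match at A1G, T10A and T13G, and the *PMEPA1* match at A1T and C5G. The *KLK3* match lies 170 to 156 bases before the start and the *KLK2* match 176 to 162 bases before it. Up to 2 mismatches were found in 2 of the 30 members with a promoter sequence (6.67%), beside 1.74% of 27305 genes, and up to 3 in 7 members (23.3%), beside 13.1%. The 7 were *KLK3*, *PMEPA1*, *KLK2*, *FKBP5*, *HPGD*, *STEAP2* and *TRPM8*. Of these, *KLK2* alone split between the siRNAs, *KLK3* and *HPGD* rose with both, *PMEPA1* and *TRPM8* fell with both, *STEAP2* rose with si025 only, and *FKBP5* was not called. A gene with more windows has more chances of a match. *TRPM8* had 6 windows and *PMEPA1* 4, while all 27305 genes together had 35116. The shares were not adjusted for this, so those of members and of all genes are not like for like. A match is a description of letters, and binding of the receptor was not measured.

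**Figure D2:**
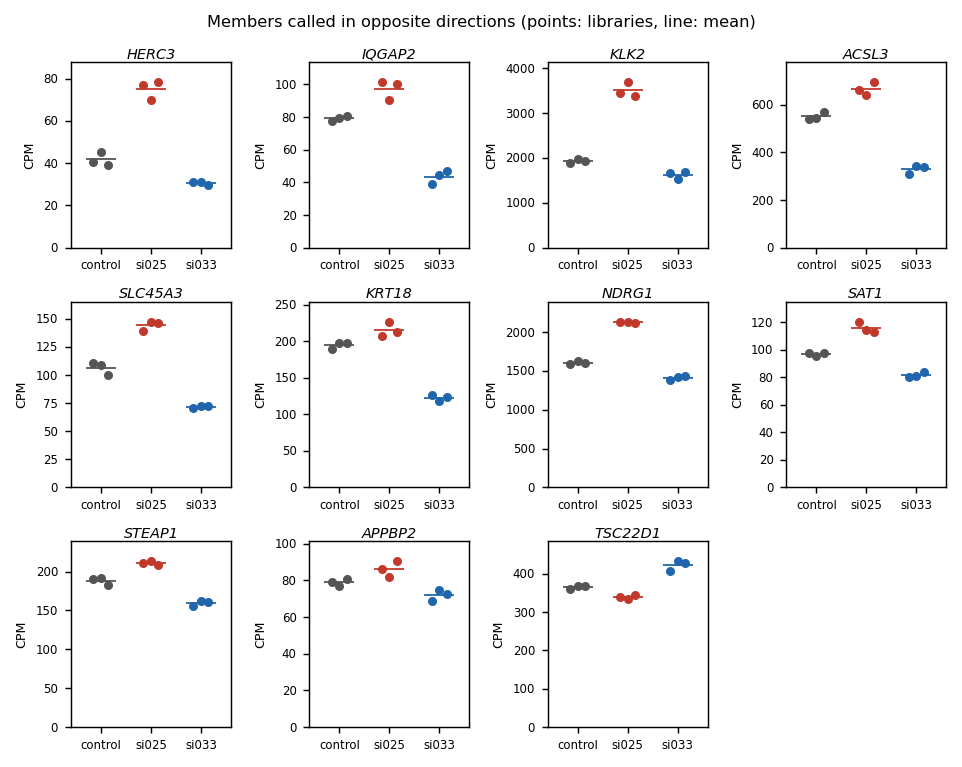
CPM of the 11 members called in opposite directions, on an axis from 0, with 1 point per library (3 per group) and a line at the group mean. In the first 10 panels the si025 points lie above and the si033 points below control, and in the panel of *TSC22D1* the order is reversed.

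Among the remaining secreted and protease genes, *TMPRSS2*, a membrane serine protease whose promoter drives *ERG* in VCaP cells, moved little. It gave 307, 307 and 311 CPM in control, 354, 348 and 348 with si025, and 323, 297 and 324 with si033. The si025 libraries stood above all others, and si033 overlapped with control. *ERG* itself gave 310, 300 and 323 CPM in control, 452, 452 and 453 with si025, and 271, 276 and 297 with si033, with log2 fold changes of 0.54 and -0.14. *ERG* thus split between the siRNAs, whereas *TMPRSS2* rose with si025 by 0.18 ± 0.04 (adjusted *p* = 0.000704) and was not called with si033 (log2 fold change 0.03, adjusted *p* = 0.590).

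*SPOCK1*, a secreted proteoglycan, gave 67.0, 61.8 and 64.2 CPM in control, 129, 118 and 128 with si025, and 60.6, 62.4 and 63.8 with si033. Only the si025 libraries stood apart, with a log2 fold change of 0.96 ± 0.05 (adjusted *p* = 2.70e-13). *ADAMTS1*, a secreted metalloprotease, fell with both siRNAs, from 123 ± 1.90 CPM (SD, n = 3) to 52.9 ± 3.04 with si025 and 74.8 ± 3.73 with si033. *AZGP1*, a secreted glycoprotein, was too low to be tested, with mean CPM of 0.187 in control, 0.328 with si025 and 0.350 with si033.

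All 5 membrane reductases, transporters and channels were called higher with si025 than with si033, beside 31.2% of all genes. *SLC45A3*, which encodes the luminal transporter prostein, gave 110, 109 and 99.7 CPM in control, 140, 148 and 146 with si025, and 70.5, 72.7 and 72.4 with si033. Its groups did not overlap, with log2 fold changes of 0.45 ± 0.05 and -0.56 ± 0.05 and a difference of 1.01 ± 0.05 (adjusted *p* = 3.61e-14). The neighbouring member *ELK4*, an ETS factor that starts 23773 bases downstream of it on the same strand and is known to be joined to it in read-through transcripts, fell with both siRNAs instead, by 0.68 and 0.62 on the log2 scale.

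*STEAP1*, a metalloreductase-like surface protein, gave 190, 191 and 182 CPM in control, 211, 213 and 208 with si025, and 155, 162 and 161 with si033. These small shifts left no overlap, with log2 fold changes of 0.17 ± 0.04 (adjusted *p* = 0.00145) and -0.24 ± 0.04 (adjusted *p* = 6.19e-05). The metalloreductase gene *STEAP2*, 46858 bases away on the same strand, rose with si025 only (log2 fold change 0.25). *STEAP4*, a family member elsewhere on the chromosome, was scarce, at 1.31, 1.74 and 1.51 CPM in control, 1.32, 1.79 and 1.64 with si025, and 0.824, 0.542 and 0.587 with si033. Here si025 overlapped with control and si033 lay below it, with a log2 fold change of -1.26 ± 0.27 (adjusted *p* = 0.000421).

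*TRPM8*, a cold-sensing calcium channel, gave 273, 271 and 264 CPM in control, 240, 223 and 239 with si025, and 120, 133 and 128 with si033. It fell with both siRNAs, by 0.20 and by 1.08 on the log2 scale, and the direct difference was 0.88 ± 0.05 (adjusted *p* = 1.48e-13).

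Of the 7 genes of metabolic enzymes and lipid binding, 6 rose with si025 (85.7%, beside 32.9% of all genes), while 3 rose and 3 fell with si033 (42.9% each, beside 26.9% and 27.8%). *ACSL3*, which activates long-chain fatty acids, gave 539, 546 and 571 CPM in control, 662, 642 and 696 with si025, and 310, 343 and 337 with si033. The groups did not overlap, and the siRNAs differed by 1.01 ± 0.05 on the log2 scale (adjusted *p* = 6.24e-15). *SAT1*, the acetyltransferase that starts polyamine breakdown, gave 97.7, 95.8 and 97.5 CPM in control, 121, 114 and 113 with si025, and 80.1, 80.9 and 84.1 with si033. It split, with log2 fold changes of 0.25 and -0.24, whereas *SMS*, which makes spermine, rose with both (0.15 and 0.20) and did not pass the direct test (difference -0.04 ± 0.05, adjusted *p* = 0.405).

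The acyl-CoA binding protein gene *DBI* rose by 0.34 and 0.19 and the prostaglandin dehydrogenase gene *HPGD* by 0.64 and 0.43 with si025 and si033. *SORD*, sorbitol dehydrogenase, rose with si025 by 0.17 and was not called with si033. The rise of *SORD* did not pass without si025 replicate 2 or 3 or control replicate 2 or 3, with adjusted *p* values of 0.0553 to 0.187. It was also lost with the DESeq2 Wald test (adjusted *p* = 0.0642). *UAP1*, which makes UDP-N-acetylglucosamine, fell with both, by 0.15 and 0.64. *PGM3*, an earlier enzyme of the same pathway and no member, had log2 fold changes of 0.18 and -0.56.

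The keratins of simple epithelium responded each in a different way. *KRT18* gave 189, 197 and 198 CPM in control, 208, 227 and 212 with si025, and 127, 118 and 124 with si033. It split, with log2 fold changes of 0.15 ± 0.05 (adjusted *p* = 0.00733) and -0.66 ± 0.05 (adjusted *p* = 4.51e-11). *KRT8*, whose product forms filaments with that of *KRT18* and whose gene overlaps it on the opposite strand, rose with si025 by 0.33 and was not called with si033 (log2 fold change -0.02, adjusted *p* = 0.722).

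*KRT19* gave 12.5, 14.1 and 13.6 CPM in control, 31.6, 36.0 and 33.2 with si025, and 58.0, 52.5 and 50.2 with si033. It rose with both siRNAs, by 1.32 and 1.98, and more with si033 (difference -0.66 ± 0.06, adjusted *p* = 6.71e-09). The keratin genes have processed pseudogenes, so their counts are less certain.

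Of the 8 signalling genes, 2 rose (25%) and 4 fell (50%) with si025, beside 32.9% and 28.8% of all genes, and 1 rose (12.5%) and 5 fell (62.5%) with si033, beside 26.9% and 27.8%. *NDRG1*, a stress and differentiation gene, was the second most abundant member per kilobase. It gave 1589, 1623 and 1609 CPM in control, 2136, 2127 and 2123 with si025, and 1379, 1419 and 1439 with si033. The groups did not overlap, with log2 fold changes of 0.41 ± 0.04 (adjusted *p* = 1.02e-09) and -0.19 ± 0.04 (adjusted *p* = 0.000113).

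*IQGAP2*, a scaffold protein, gave 77.8, 79.6 and 80.5 CPM in control, 101, 90.5 and 100.0 with si025, and 39.1, 44.5 and 46.8 with si033. It split, with log2 fold changes of 0.29 ± 0.06 and -0.85 ± 0.06 and a difference of 1.15 ± 0.06 (adjusted *p* = 1.52e-13). *FKBP5*, a co-chaperone induced by androgen and glucocorticoid receptors and widely used as a readout of both, gave 194, 206 and 194 CPM in control, 207, 194 and 212 with si025, and 203, 214 and 210 with si033. All groups overlapped, and it was the 1 tested member not called with either siRNA, with log2 fold changes of 0.04 ± 0.05 and 0.08 ± 0.05. *FKBP5* passed as higher with si033 in 4 of 19 alternatives, namely upper quartile scaling, library totals with no TMM factor and both fits with offsets for gene length and GC content (adjusted *p* of 0.0188 to 0.0490), and both offset fits also called it between the siRNAs (adjusted *p* of 0.0390 and 0.0458).

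*PMEPA1*, an inhibitor of TGF-β signalling, fell from 888 ± 18.2 CPM (SD, n = 3) to 577 ± 6.85 with si025 and 796 ± 5.52 with si033. *BMPR1B*, a BMP receptor, fell by 0.79 and 0.17 on the log2 scale. The kinase gene *MAK* fell by 1.82 and 1.71 but had mean CPM of 1.2 at most. *GNAI3*, a G protein subunit, fell with si025 only (by 0.14), and *CAMKK2*, a calcium-dependent kinase that activates AMPK, rose with si033 only (0.12). Some of these small shifts rested on single libraries or on the processing. That of *GNAI3* did not pass without si025 replicate 3 or control replicate 2 or 3 (adjusted *p* of 0.0559 to 0.0835). It also did not pass with library totals and no TMM factor (adjusted *p* = 0.117). *GNAI3* passed as higher with si033 without si033 replicate 1 (adjusted *p* = 0.0288). The same held with upper quartile scaling, with library totals and with both offset fits (adjusted *p* of 0.00143 to 0.0283). *GNAI3* split between the siRNAs in 4 of 19 alternatives. The rise of *CAMKK2* did not pass without si033 replicate 3 or control replicate 1 or 2 (adjusted *p* of 0.0530 to 0.133). It was also lost with the offsets and replicate block (adjusted *p* = 0.0534). The fall of *BMPR1B* with si033 did not pass without si033 replicate 1 or control replicate 3 (adjusted *p* of 0.0536 and 0.0778). It was also lost with library totals and no TMM factor (adjusted *p* = 0.0655).

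The 6 members listed as transcription regulators ran the other way. None was called higher with si025 than with si033 and 5 were called lower (83.3%, beside 29.7% of all genes), with *ELK4* not called. Both fits with offsets for gene length and GC content called *ELK4* lower as well (adjusted *p* of 0.0242 and 0.0274). Transcription factor genes that are no members went both ways. For example, *SPDEF* (2.09) and *ERG* (0.68) were higher with si025, and *SRF* (-0.67) and *NR3C1* (-0.43) with si033. *MAF*, a bZIP factor, gave 3.67, 3.91 and 3.86 CPM in control, 6.85, 6.65 and 6.19 with si025, and 21.3, 19.0 and 20.6 with si033. It rose with both, by 0.77 ± 0.12 and 2.41 ± 0.11, and was the member with the largest difference between the siRNAs in either direction (-1.64 ± 0.09, adjusted *p* = 5.37e-13). Its counts cover 30828 bases of exons spread over chr16:79202624-79600725.

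*TSC22D1*, a TGF-β-stimulated regulator, gave 360, 369 and 368 CPM in control, 338, 333 and 343 with si025, and 406, 432 and 429 with si033. It fell with si025 by 0.11 ± 0.04 (adjusted *p* = 0.0196) and rose with si033 by 0.21 ± 0.04 (adjusted *p* = 0.000130), without overlap. The fall did not pass without control replicate 2 (adjusted *p* = 0.0524) or with library totals and no TMM factor (adjusted *p* = 0.176). *ELL2*, an elongation factor, and *ARID5B*, a chromatin-binding factor, rose with si033 only, by 0.39 and 0.30. With library totals and no TMM factor, *ARID5B* also passed as higher with si025 (adjusted *p* = 0.0183). *ELL2* stood at -0.11 with si025 (adjusted *p* = 0.0616) and passed as lower without si025 replicate 3, si033 replicate 1 or 2, or control replicate 2. It also passed as lower with DESeq2 size factors, no filter, the DESeq2 Wald test, only the groups compared and both offset fits. *ZBTB10*, a zinc finger repressor, fell with both, by 0.97 and 0.71.

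**Figure D3:**
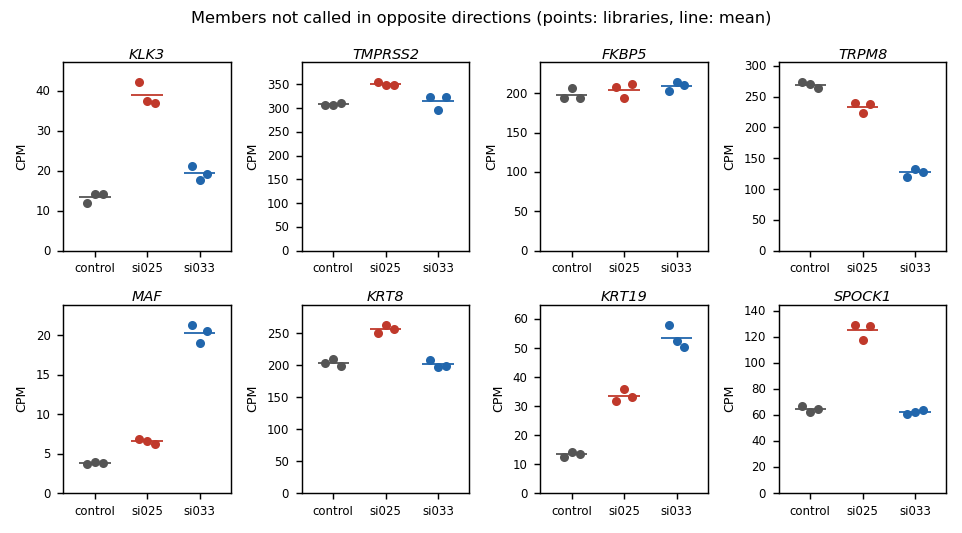
CPM of 8 members that were not called in opposite directions, on an axis from 0, with 1 point per library (3 per group) and a line at the group mean. *FKBP5* overlaps in all groups, *KLK3*, *KRT19* and *MAF* lie above control with both siRNAs, *TRPM8* lies below it with both, and *TMPRSS2*, *KRT8* and *SPOCK1* stand apart with si025 only.

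Among the genes of ubiquitin, trafficking and chromosome proteins, all 4 fell with si033, beside 27.8% of all genes. *HERC3*, a ubiquitin ligase, gave 40.7, 45.4 and 39.2 CPM in control, 77.1, 70.0 and 78.3 with si025, and 31.1, 30.9 and 29.8 with si033. It had the largest difference of the split members, 1.30 ± 0.06 (adjusted *p* = 2.55e-14). *APPBP2*, a microtubule-associated adaptor of ubiquitin ligases, gave 78.9, 76.8 and 81.0 CPM in control, 86.0, 82.0 and 90.5 with si025, and 68.8, 74.6 and 72.4 with si033. Its calls against control were close to the threshold, with adjusted *p* values of 0.0395 and 0.0337, and it kept the split in 5 of 19 alternatives. The call with si025 was lost without si025 replicate 1 or 3, si033 replicate 3 or any control library (adjusted *p* of 0.0515 to 0.219). It was also lost with DESeq2 size factors, no filter, the DESeq2 Wald test and only the groups compared (adjusted *p* of 0.0570 to 0.101). The call with si033 was lost without si033 replicate 1 or 3 or control replicate 1 or 3 (adjusted *p* of 0.0745 to 0.159). Upper quartile scaling, library totals and the offsets with replicate block also removed it (adjusted *p* of 0.0538 to 0.188). The 9 other members that rose with si025 and fell with si033 kept the split in all 19. *TPD52*, a trafficking protein, fell with si033 only, by 0.44, and *NCAPD3*, a condensin subunit, fell with both, by 0.62 and 0.43.

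Levels of members can be compared per kilobase of exon. In control, *KLK2* was highest at 655 ± 14.8 CPM per kilobase (SD, n = 3), followed by *NDRG1* at 337 ± 3.57 and *TPD52* at 174 ± 5.08. *PMEPA1* at 161 ± 3.31 and *STEAP1* at 143 ± 3.80 came next. *KLK4* at 94.9 ± 3.49 and *ACSL3* at 97.4 ± 3.02 differed by less than their spread. At the low end lay *STEAP4* at 0.332 ± 0.0471, *MAK* at 0.200 ± 0.0228, *AZGP1* at 0.148 ± 0.0513 and *MAF* at 0.124 ± 0.00424, of which *AZGP1* and *MAF* lay within 1 SD of each other. *KLK3*, at 7.02 ± 0.686, ranked 35 of 40.

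**Figure D4:**
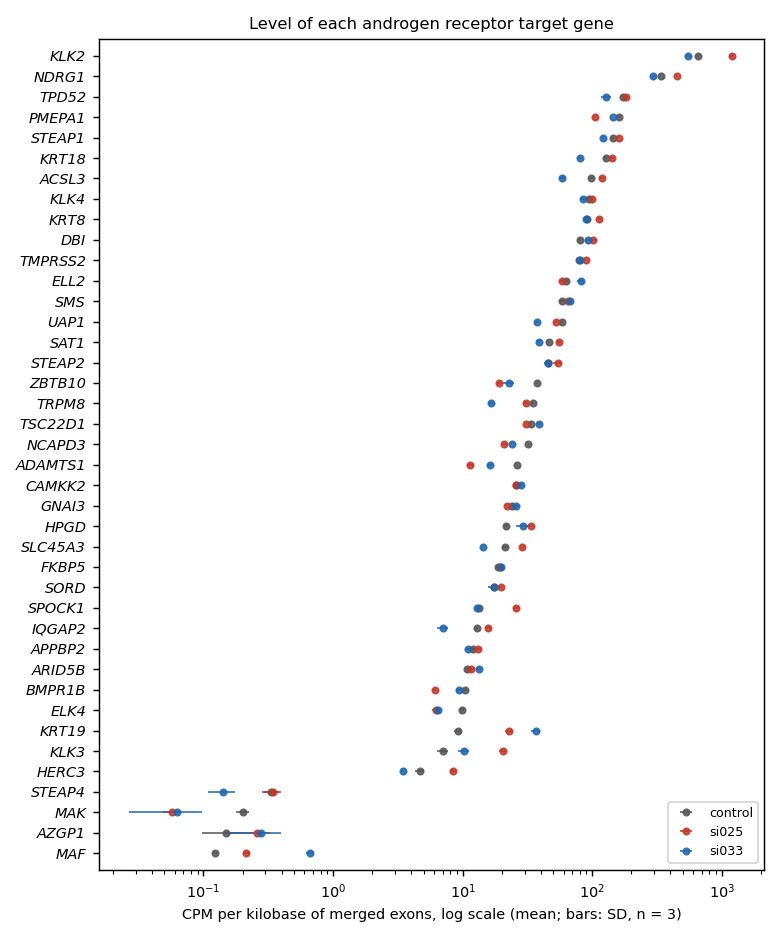
Mean CPM per kilobase of merged exons of the 40 members on a log axis, with SD over 3 libraries as bars, in control (grey), si025 (red) and si033 (blue). *KLK2* is highest in every group, and 4 members lie below 1 CPM per kilobase in all groups.

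The list of 13 receptor cofactor genes also held *NR3C1*, the gene of the glucocorticoid receptor, which is a separate receptor. Of the 13, 5 rose (38.5%) and 2 fell (15.4%) with si025, beside 32.9% and 28.8% of all genes. With si033, 5 rose and 5 fell (38.5% each), beside 26.9% and 27.8%. In the direct comparison 7 were higher with si025 (53.8%) and 4 higher with si033 (30.8%), beside 31.2% and 29.7%. The ETS factor gene *ERG* had the largest difference, 0.68 ± 0.04 (adjusted *p* = 4.40e-12). The pioneer factor gene *FOXA1* rose with si025 and fell with si033 (0.23 and -0.32), *GATA2* fell with si033 only (by 0.53), and *HOXB13* rose with both (0.53 and 0.26). Compared directly, *GRHL2*, *NCOA2* and *CREBBP* were higher with si025 than with si033 by 0.23 to 0.25. Against control, *NCOA2* rose with si025 only (0.34), and *GRHL2* and *CREBBP* fell with si033 only (by 0.25 and 0.17). *NR3C1* (glucocorticoid receptor), *EP300* (acetyltransferase), *MED1* (mediator) and *NCOR1* (corepressor) were higher with si033 than with si025, by 0.23 to 0.43 in size. Against control, *NR3C1* and *NCOR1* rose with si033 only (0.60 and 0.19). *EP300* and *MED1* were not called with si033 and fell with si025 (by 0.32 and 0.19).

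Of 7 receptor chaperone genes, 6 fell with si025 and 6 with si033 (85.7% each, beside 28.8% and 27.8% of all genes), and none rose. *HSP90AA1* was not called with si025 and *HSPA8* not with si033, and the other 5 fell with both. In the direct comparison *FKBP4* (0.36) and *HSP90AA1* (0.10) were higher with si025, whereas *HSPA8* (-0.25), *DNAJA1* (-0.16) and *STIP1* (-0.09) were higher with si033.

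Genes known to be repressed by androgen also differed between the siRNAs. Of 6, none rose and 5 fell with si025 (83.3%, beside 28.8% of all genes), and 3 rose (50%) and 2 fell (33.3%) with si033, beside 26.9% and 27.8%. *OPRK1*, the kappa opioid receptor gene, gave 106, 108 and 111 CPM in control, 30.0, 34.3 and 33.1 with si025, and 367, 348 and 381 with si033. It fell by 1.73 with si025 and rose by 1.75 with si033, and the difference of -3.48 ± 0.05 (adjusted *p* = 6.82e-23) was larger in size than that of any member. *UGT2B17*, which conjugates androgens to glucuronic acid, gave 32.6, 29.1 and 33.7 CPM in control, 14.1, 12.7 and 13.7 with si025, and 61.6, 68.8 and 65.8 with si033. It split in the same sense, by -1.25 and 1.03. *AKR1C3*, which makes testosterone from a precursor, split by -0.35 and 0.24. *UGT2B15*, a near copy of *UGT2B17*, fell with si025 only (by 0.84), and the reads of both genes are less certain. *HSD17B6*, an enzyme of androgen breakdown, ran the other way and fell with si033 (by 1.23).

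**Figure D5:**
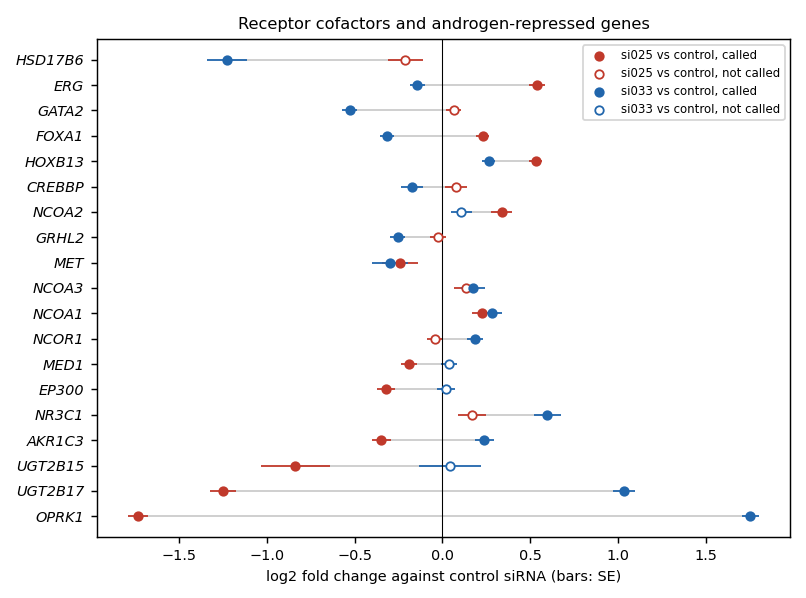
Log2 fold change against control of 13 genes listed as receptor cofactors and 6 androgen-repressed genes with si025 (red) and si033 (blue), with SE as bars, ordered by si025 minus si033. *HSD17B6* lies at the top with -0.21 and -1.23, and *OPRK1* at the bottom with -1.73 and 1.75.

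A further 65 androgen response genes that are no members gave 28 higher (43.1%) and 21 lower (32.3%) with si025, beside 32.9% and 28.8% of all genes, and 11 higher (16.9%) and 39 lower (60%) with si033, beside 26.9% and 27.8%. Their median log2 fold changes were 0.07 and -0.20. Of these, 12 rose with si025 and fell with si033 (18.5%) and 2 did the reverse (3.08%), beside 5.39% and 3.01% of all genes. The highest in the direct comparison were *SPDEF* (2.09), *HSD17B14* (1.56), *TNFAIP8* (1.43), *ALDH1A3* (1.37) and *INPP4B* (1.36), and the lowest *CDK6* (-1.93), *AKAP12* (-1.14), *SRF* (-0.67), *HMGCS1* (-0.61) and *SGK1* (-0.57).

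All 6 luminal prostate markers examined, 4 of them members, were present in all libraries, with a summed level of 1916 to 1944 CPM in control, 2394 to 2429 with si025 and 1801 to 1834 with si033. *KRT5*, *CDH5* and *CD3E*, markers of basal, endothelial and T cells, were at 0 in every library. Other genes of the basal, endothelial and immune lists were detected at low levels. *KRT14* had 1.24 to 4.98 CPM, *VWF* 0.619 to 2.03, *CD68* 0.619 to 1.59 and *CD14* 0.496 to 1.87. *TP63* had at most 2 counts, *PTPRC* at most 3 and *PECAM1* at most 5 in any library. The basal markers summed to 3.09 to 4.98 CPM in control, 2.73 to 3.67 with si025 and 1.24 to 1.76 with si033. Neuroendocrine markers summed to 40.2 to 44.6 CPM in control, 41.2 to 44.2 with si025 and 42.0 to 43.7 with si033, carried by *SYP* at 27.4 to 31.7 CPM and *INSM1* at 10.4 to 13.3, while *CHGA* had at most 1 count. The summed fibroblast and muscle markers moved in the same order as the split members, at 19.9 to 21.8 CPM in control, 39.4 to 46.6 with si025 and 11.8 to 14.9 with si033. Of the 6 genes of that list, *LUM* had mean CPM of 15.6, 37.1 and 8.39 and *COL1A1* of 1.73, 3.40 and 1.5 in the same order, whereas *ACTA2* had 3.17, 3.04 and 2.95, *COL1A2* had at most 1 count, *DCN* at most 4 and *PDGFRB* at most 6 in any library. The part of these markers in the split was not tested.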

How the data were processed

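RNA-seq had been carried out on VCaP cells 72 h after reverse transfection with 100 pmol of siRNA, with 1.3 µg of total RNA per stranded library. Samples were grouped by their titles. According to the submitters' processing notes, HISAT2 2.1.0 and featureCounts 1.5.2 were used. Per the file headers, the authors made the deposited counts by counting read pairs over exons of a RefSeq annotation of hg38 by gene symbol on the sense strand, whereas the methods of the study name GENCODE. The labels and methods also name different RNA extraction kits. By its defaults, featureCounts leaves out read pairs with several alignments, which makes genes with near copies less certain.

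The deposited counts were tested with edgeR 4.0.16 in R 4.3.3 (quasi-likelihood test, TMM normalization, default filter, 12810 of 19918 genes kept). All 9 libraries entered 1 fit with 3 group means. The false discovery rate was controlled with the Benjamini-Hochberg procedure across every gene tested, at a threshold of 0.05. The SE of a log2 fold change is its size divided by the square root of F. CPM were scaled by TMM. The biological coefficient of variation was 4.13%. Chi-square per degree of freedom between replicates was 1.72 to 5.09, above counting noise, so none was merged. Scripts were tested on simulated data.

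The members and gene lists were chosen with earlier results of these data known. By a fixed rule, values in every library were given for members called in opposite directions, the 12 members with the largest called difference between the siRNAs, and *KLK2*, *KLK3*, *TMPRSS2* and *FKBP5*. Cofactor, chaperone and repressed genes were given by count with those called between the siRNAs named, and of other androgen response genes the 5 highest and 5 lowest. Some genes of these lists are not reported here and were left out of the counts. *ERG* and *PGM3* values beyond this were chosen after they were seen. Promoters came from RefSeq (GRCh38.p14). Alternatives were DESeq2 1.42.0, other scalings and filters, the groups compared alone, offsets for gene length and GC content, a replicate block and leaving out each library.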

Additional observations from a re-analysis of the deposited data

Results flagged for a closer look

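The effect of the siRNAs differed for 35 members by the direct edgeR comparison of si025 with si033, adjusted over all genes tested, and the values are log2 differences, si025 minus si033. The 23 members that were higher with si025 were *STEAP4* (1.34), *HERC3* (1.30), *IQGAP2* (1.15), *KLK2* (1.11), *ACSL3* (1.01), *SLC45A3* (1.01), *KLK3* (1.0), *SPOCK1* (1.0), *TRPM8* (0.88), *KRT18* (0.81), *NDRG1* (0.59), *SAT1* (0.50), *TPD52* (0.50), *UAP1* (0.49), *STEAP1* (0.40), *KRT8* (0.35), *APPBP2* (0.26), *KLK4* (0.24), *STEAP2* (0.23), *HPGD* (0.20), *SORD* (0.17), *TMPRSS2* (0.15) and *DBI* (0.15). The 12 that were higher with si033 were *MAF* (-1.64), *KRT19* (-0.66), *BMPR1B* (-0.62), *ADAMTS1* (-0.50), *ELL2* (-0.49), *PMEPA1* (-0.46), *TSC22D1* (-0.32), *ZBTB10* (-0.26), *GNAI3* (-0.24), *ARID5B* (-0.20), *NCAPD3* (-0.19) and *CAMKK2* (-0.14). Of these, *SORD* was called in 14 of 19 alternatives, *HPGD* in 16, *CAMKK2* in 17 and *DBI* in 17, with adjusted *p* values of 0.0504 to 0.126 where a call was lost, and the other members in all 19. The calls of *SORD* were lost with the DESeq2 Wald test and without si025 replicate 2 or 3 or si033 replicate 1 or 3. Those of *HPGD* were lost without si025 replicate 3 or si033 replicate 1 or 3. Those of *CAMKK2* were lost without si025 replicate 3 or si033 replicate 3, and those of *DBI* without si025 replicate 2 or si033 replicate 3. The same comparison called 31.2% and 29.7% of all genes tested in these directions. No library of a group was examined as an outlier, since groups of 3 are too small for that.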

How the results depend on the processing

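Counts of called members kept their size in 19 alternatives for all arrangements but 1. Members higher with si025 and lower with si033 numbered 10, between 9 and 10 with 1 library left out and between 9 and 11 otherwise. *KLK4* joined them with library totals and no TMM factor, where its rise with si025 passed (adjusted *p* = 0.0383). *KRT8* joined them with offsets for gene length and GC content, where its fall with si033 passed (adjusted *p* = 0.0491). Members lower with si025 and higher with si033 numbered 1, 2 with DESeq2 size factors, upper quartile scaling, no filter, the DESeq2 Wald test or only the groups compared, 0 with library totals and no TMM factor, 4 with offsets for gene length and GC content, 3 with these offsets and the replicate block, and between 1 and 3 with 1 library left out (2 without si025 replicate 3 or si033 replicate 2, 3 without si033 replicate 1). Over the 19 alternatives *TSC22D1* had that arrangement in 17, *ELL2* in 10, *GNAI3* in 4 and *CAMKK2* in 1, and without control replicate 2 the 1 member was *ELL2* and not *TSC22D1*. Replicate numbers did not pair the samples, since same-numbered libraries correlated between -0.0214 and 0.0729 in their deviations and 4 of 9 correlated best with their own number, and the replicate block left 10 and 1 split members. With library totals and no TMM factor, 4211 genes rose and 2888 fell with si033, beside 3449 and 3566. No called value of a member changed sign in 2222 values, while 47 lost and 28 gained a call. Log2 fold changes that changed sign, 21 of members and 32 of other genes, were not called in either fit, and the cause was not tested. With upper quartile scaling, these were *CAMKK2* 0.00156 (si025 against control) and *SORD* 0.0250, *KRT8* 0.00896 (si033 against control). With library totals and no TMM factor, these were *CAMKK2* 0.0311, *GRHL2* 0.0250, *NCOR1* 0.00746, *TNFAIP8* 0.0133 (si025 against control) and *SORD* 0.0499, *KRT8* 0.0330, *SPOCK1* 0.0123 (si033 against control). With offsets for gene length and GC content, these were *GATA2* -0.0381, *CREBBP* -0.0366, *HSP90AA1* -0.00641 (si025 against control) and *TMPRSS2* -0.00392, *SORD* 0.00708 (si033 against control) and *HSP90AB1* 0.00906 (si025 against si033). With offsets for gene length and GC content with replicate block, these were *GATA2* -0.0379, *CREBBP* -0.0361, *HSP90AA1* -0.00631 (si025 against control) and *TMPRSS2* -0.00486, *SORD* 0.00748 (si033 against control) and *HSP90AB1* 0.00897 (si025 against si033). With DESeq2 size factors (RLE), this was *HSP90AA1* -0.0119 (si025 against control). With DESeq2 Wald test, this was *HSP90AA1* -0.0120 (si025 against control). With only the libraries of the 2 groups compared, this was *HSP90AA1* -0.0124 (si025 against control). Leaving out 1 library gave, for si025 against control, *STEAP4* -0.0114 to 0.16, *CAMKK2* -0.0524 to 0.0185, *GRHL2* -0.0532 to 0.00554, *NCOR1* -0.0923 to 0.00540, *HSP90AA1* -0.0153 to 0.0264, *TNFAIP8* -0.16 to 0.0539. Leaving out 1 library gave, for si033 against control, *STEAP2* -0.0286 to 0.0806, *SORD* -0.0565 to 0.0776, *KRT8* -0.0346 to 0.00814, *EP300* -0.00422 to 0.0431, *UGT2B15* -0.0392 to 0.22, *HSD17B14* -0.0171 to 0.17. Leaving out 1 library gave, for si025 against si033, *FKBP5* -0.0653 to 0.00410, *MAK* -0.37 to 0.14, *NCOA1* -0.0992 to 0.0182, *NCOA3* -0.0970 to 0.0603, *HSP90AB1* -0.0207 to 0.000429, *MET* -0.00865 to 0.18. Depth limits *MAK*, *STEAP4* and *AZGP1*, with at most 63, 90 and 19 counts summed over the libraries of a group. *MAF* was lowest per kilobase over its 30828 bases of exons, but had 196 counts in control, 362 with si025 and 1101 with si033.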
